A study of Mus musculus with 12 samples.

Results

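Collagen genes encode the chains that wind into triple helices and build most of the fibrous and sheet-like matrix around connective tissue cells. They were described here in cultured fibroblasts of mouse embryos (MEFs). Genes were taken as members when the RefSeq accession of an array probe mapped to a symbol made of Col, a number, the letter a and a number, a rule that uses no measured value. The rule found 63 probes of 43 collagen genes among 20660 named genes. A gene was tested when a probe lay well above background, by the scanner software's flag, on all 3 arrays of at least 1 group. This held for 31 collagen genes of the 15445 genes tested and left 12 out.

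The study compared 4 groups of 3 Agilent single-colour arrays, 12 in all. The cells were wild type (WT) or GADD34ΔC/ΔC, here written ΔC. GADD34, encoded by Ppp1r15a, brings a phosphatase to eIF2α, a factor of translation initiation. Cells of either genotype were lipofected or not with poly(I:C) of high molecular weight, a synthetic double-stranded RNA that stands in for viral RNA. The dose was 2.5 µg/ml and the time 6 h. The arrays numbered 1 to 3 in each group come from 3 independent experiments. The labels do not say whether untreated cells received the lipid reagent without RNA. They also do not give the number of lines or embryos behind each genotype, so that genotype and line cannot be told apart.

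Each fibrillar procollagen chain is made in the endoplasmic reticulum, hydroxylated, folded as a trimer, exported in large carriers, trimmed outside the cell and crosslinked into fibrils. Types I and III are the main fibrils of fibroblast matrix, and type V chains start and limit those fibrils. Type IV chains form the sheets of basement membranes, type VI forms beaded filaments next to cells, and type VII anchors epithelial basement membranes to the tissue beneath. Types II, IX, X and XI are best known from cartilage.

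Levels are log2 intensities minus the 75th percentile of the same array, so that 0 is the level of that percentile and 1 unit is a doubling. Changes are log2 differences with their standard error (SE) from limma, a linear model fitted over all 12 arrays, and a gene was called at a Benjamini-Hochberg adjusted p under 0.05 over all 15445 genes. Probe signals of different genes are not compared with each other, and a sum over markers weighs bright probes most. Ppp1r15a was well above background on 6 of 6 WT arrays and on 1 of 6 ΔC arrays. Isg15 and Ifit1, genes of the interferon response, were higher on every treated array than on any untreated array of the same genotype. The share of probes well above background was 60.4 to 67.3% per array. Of 11 fibroblast markers, 10 were tested and Lum was not well above background in any group. For each state, 1 slide held an array of both genotypes, so the difference between those 2 arrays is given as the difference within a slide.

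The upstream sequences of 5 genes are shown, because these genes had the 4 largest falls and the largest called rise between the untreated genotypes. Each is the 250 bases before the RefSeq start site on the strand of the gene (GRCm38.p6). Capitals mark 3 promoter motifs searched on both strands, the TATA box (TATAAA or TTTATA), the CCAAT box (CCAAT or ATTGG) and the GC box (GGGCGG or CCGCCC), none of which overlap each other in these windows.
Col6a3 (chr1:90843972-90844221, minus strand): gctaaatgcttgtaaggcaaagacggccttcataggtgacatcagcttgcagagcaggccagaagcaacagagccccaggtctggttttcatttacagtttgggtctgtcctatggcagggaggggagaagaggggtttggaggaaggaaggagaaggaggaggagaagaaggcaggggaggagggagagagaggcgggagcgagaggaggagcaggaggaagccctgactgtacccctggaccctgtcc
Col10a1 (chr10:34389731-34389980, plus strand, within the RefSeq span of Nt5dc1): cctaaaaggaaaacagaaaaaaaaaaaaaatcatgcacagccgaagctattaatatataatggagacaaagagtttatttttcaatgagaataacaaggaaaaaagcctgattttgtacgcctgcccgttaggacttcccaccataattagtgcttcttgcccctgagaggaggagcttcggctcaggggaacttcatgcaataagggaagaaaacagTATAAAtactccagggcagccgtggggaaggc
Col3a1 (chr1:45311288-45311537, plus strand): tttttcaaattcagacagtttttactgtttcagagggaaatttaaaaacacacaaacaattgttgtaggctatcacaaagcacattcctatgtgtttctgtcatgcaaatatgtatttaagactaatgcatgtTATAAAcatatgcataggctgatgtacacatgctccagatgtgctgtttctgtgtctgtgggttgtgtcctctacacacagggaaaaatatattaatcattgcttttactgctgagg
Col5a3 (chr9:20815068-20815317, minus strand): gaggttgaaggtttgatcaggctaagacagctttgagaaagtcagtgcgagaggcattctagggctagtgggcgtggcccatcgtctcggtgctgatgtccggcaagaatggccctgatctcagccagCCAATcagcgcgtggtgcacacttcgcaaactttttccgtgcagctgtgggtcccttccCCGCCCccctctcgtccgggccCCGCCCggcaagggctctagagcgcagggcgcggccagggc
Col7a1 (chr9:108953336-108953585, plus strand): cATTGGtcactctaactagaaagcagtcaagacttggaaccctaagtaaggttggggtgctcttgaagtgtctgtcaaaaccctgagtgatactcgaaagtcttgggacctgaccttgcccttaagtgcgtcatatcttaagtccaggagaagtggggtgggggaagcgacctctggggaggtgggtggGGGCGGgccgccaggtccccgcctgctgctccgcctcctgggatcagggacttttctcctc
The windows of Col3a1 and Col10a1 each hold 1 TATA box and neither of the other motifs, and that of Col6a3 holds none of the 3. Those of Col5a3 and Col7a1 hold CCAAT and GC boxes and no TATA box. A match describes letters and not a bound site, and a window without one says nothing about the factor.

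RefSeq windows were at hand for 35 of the 43 collagen genes, in 38 windows. A GC box lay in 57.9% of collagen windows against 32.7% of all 32851 promoter windows, and the median GC content was 59.0% against 52.4%. The TATA box was in 13.2% of collagen windows against 12.4% of all, and the CCAAT box in 34.2% against 33.8%. Among the 9 windows of genes called in both genotype comparisons, 2 held a TATA box, 5 a CCAAT box and 5 a GC box. Col4a1 and Col4a2, which encode the common chains of type IV, start 21 bases apart on opposite strands of chromosome 8.

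The first comparison set ΔC against WT cells without poly(I:C). Of 31 collagen genes, 9 were called: Col4a1, Col4a2 and Col7a1 were higher in ΔC cells, and Col3a1, Col5a3, Col6a3, Col10a1, Col11a1 and Col18a1 were lower. This is 29.0% of the collagen genes, beside 21.2% of all genes tested (10.9% higher and 10.2% lower). The changes ran from -5.89 for Col6a3 to 1.85 for Col7a1, with a median of -0.43 over the 31 genes and -0.06 over all genes. The 2 genotypes did not overlap for 15 collagen genes, 4 higher and 11 lower, where 37.2% of all genes did not overlap (17.6% higher and 19.6% lower). In bulk RNA, fewer cells of a type and less RNA per cell cannot be told apart.

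With poly(I:C), 9 collagen genes were again called, beside 20.9% of all genes (11.9% higher and 9.04% lower). The genotypes did not overlap for 11 collagen genes, 4 higher and 7 lower (40.6% of all genes, 21.7% higher and 18.9% lower). The 6 lower ones were the same genes as without poly(I:C), Col4a2 and Col7a1 were again higher, and Col11a2 was higher while Col4a1 narrowly missed the threshold. So 8 genes were called in both states, 88.9% of the calls in each, and 10 in either. Over all genes, 2176 were called in both states (14.1%), which is 66.6% of the untreated and 67.3% of the treated calls. The median change was -0.13 over the collagen genes and 0.01 over all genes. Each state was measured on its own arrays. Same-numbered arrays of the 2 states deviated together across genes, with r of 0.135 to 0.375 in WT and 0.321 to 0.651 in ΔC cells. The overlap of calls is therefore not taken as an independent repeat. With each array scaled to its median instead, 1 gene was higher and 7 lower untreated, and 2 were higher and 8 lower after poly(I:C).

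**Figure D1:**
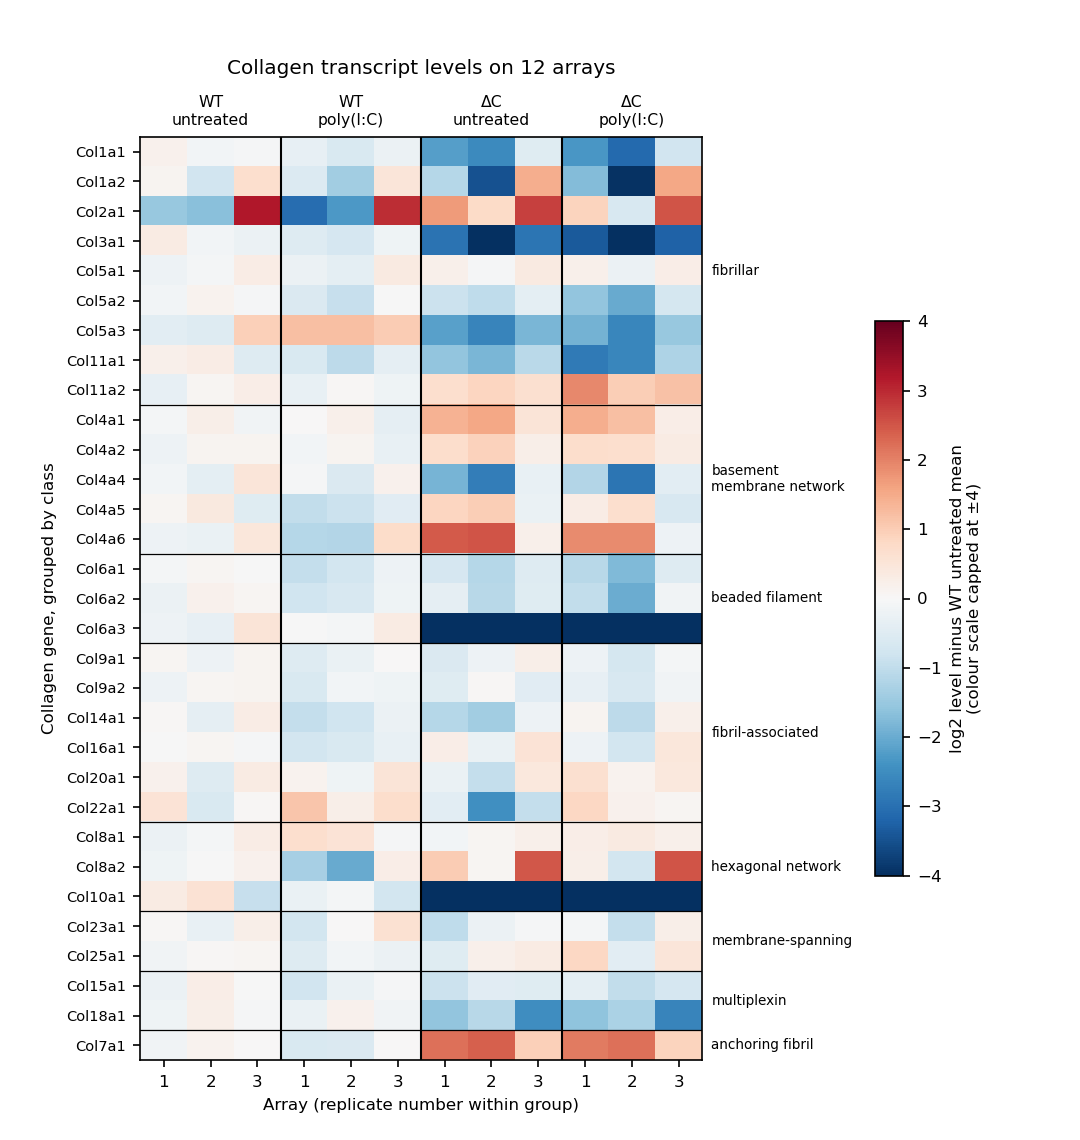
Log2 level of the 31 tested collagen genes (rows, by class) on the 12 arrays (columns), minus the mean of the 3 WT untreated arrays, with red above and blue below that mean. Col6a3 and Col10a1 were lower on all 6 ΔC arrays than on any WT array, and the arrays numbered 3 often differ from the other 2 of their group.

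Fibrillar collagens make up 9 of the tested genes, of which 3 were lower in untreated ΔC cells and 0 higher. Col3a1, the chain of type III, had levels of 3.82, 3.39 and 3.26 on the untreated WT arrays and 0.55, -1.58 and 0.56 on the untreated ΔC arrays. Its treated levels were 2.96, 2.83 and 3.31 in WT and 0.12, -1.96 and 0.25 in ΔC cells. Every ΔC array lay below every WT array, and ΔC array 2 lay lowest in both states. The change was -3.64 ± 0.65 without poly(I:C), 12.5-fold lower (limma adjusted p = 0.0037), and -3.56 ± 0.65 with it (limma adjusted p = 0.00427). Within a slide it was -4.97 untreated and -2.83 with poly(I:C).

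Col5a3, a minor chain of type V, read 1.77, 1.68 and 3.16 in untreated WT cells and 0.03, -0.44 and 0.36 in untreated ΔC cells. With poly(I:C) the WT arrays read 3.41, 3.42 and 3.23 and the ΔC arrays 0.31, -0.40 and 0.69. The groups did not overlap in either state, and among untreated WT arrays the third stood above the other 2. The change was -2.22 ± 0.40 untreated (limma adjusted p = 0.00368) and -3.15 ± 0.40 after poly(I:C) (limma adjusted p = 0.00054). With slide as a block the untreated call was lost (limma adjusted p = 0.0818), and within a slide the differences were -2.12 and -3.09.

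Col11a1, a chain of type XI, read -0.98, -0.89 and -1.72 in untreated WT and -2.76, -3.02 and -2.27 in untreated ΔC cells. Treated arrays read -1.80, -2.24 and -1.56 against -4.04, -3.81 and -2.42. ΔC array 3 was the nearest to WT in both states, though still outside its range. The change was -1.49 ± 0.41 untreated (limma adjusted p = 0.0287) and -1.56 ± 0.41 treated (limma adjusted p = 0.0236). Both calls were lost with slide as a block (limma adjusted p = 0.227 and 0.203), while the differences within a slide were -2.13 and -2.23.

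Col11a2, which pairs with Col11a1 in type XI, went the other way. It lay near the bottom of the measured range, at -5.39, -4.98 and -4.80 in untreated WT and -4.39, -4.20 and -4.42 in untreated ΔC cells, a change of 0.72 ± 0.24 that missed the threshold (limma adjusted p = 0.0556). On treated arrays WT read -5.35, -5.0 and -5.23 and ΔC -3.14, -4.06 and -3.88. That change, 1.5 ± 0.24, was called (limma adjusted p = 0.00193). All 12 readings were well above background and the groups did not overlap in either state.

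The remaining fibrillar genes were called in neither state. Col1a1, the main chain of type I and of bone and skin matrix, read 7.88, 7.61 and 7.68 in untreated WT and 5.51, 5.18 and 7.25 in untreated ΔC cells. Treated arrays read 7.41, 7.11 and 7.5 against 5.40, 4.61 and 6.96. The groups did not overlap, but ΔC array 3 lay within 1 unit of WT in both states and the other ΔC arrays more than 1 unit below. The change of -1.74 ± 0.60 missed the threshold (limma adjusted p = 0.0661) and passed with the experiment number as a block (limma adjusted p = 0.023). After poly(I:C) the change was -1.68 ± 0.60, with an adjusted p of 0.0743 from limma and 0.0268 with that block.

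Col1a2, the partner chain in type I, read 4.91, 4.04 and 5.49 in untreated WT and 3.66, 1.34 and 6.28 in untreated ΔC cells. The ΔC arrays lay on both sides of WT, and the change was -1.05 with a 95% confidence interval of -4.19 to 2.09. Col2a1, the fibril chain of cartilage, read -3.16, -3.30 and 1.57 in untreated WT and 0.08, -0.86 and 1.09 in untreated ΔC cells. Its genotype change was 1.73 with an interval of -2.03 to 5.5. Col5a2, a type V chain, was at -0.75 ± 0.33 untreated and -0.94 ± 0.33 treated, called with the experiment block (limma adjusted p = 0.0461 and 0.0218) but not without it (0.133 and 0.0699). Col5a1, the other main type V chain, differed by 0.19 ± 0.23 and 0.17 ± 0.23, with untreated levels of 3.23 to 3.71 in WT and 3.38 to 3.80 in ΔC cells.

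**Figure D2:**
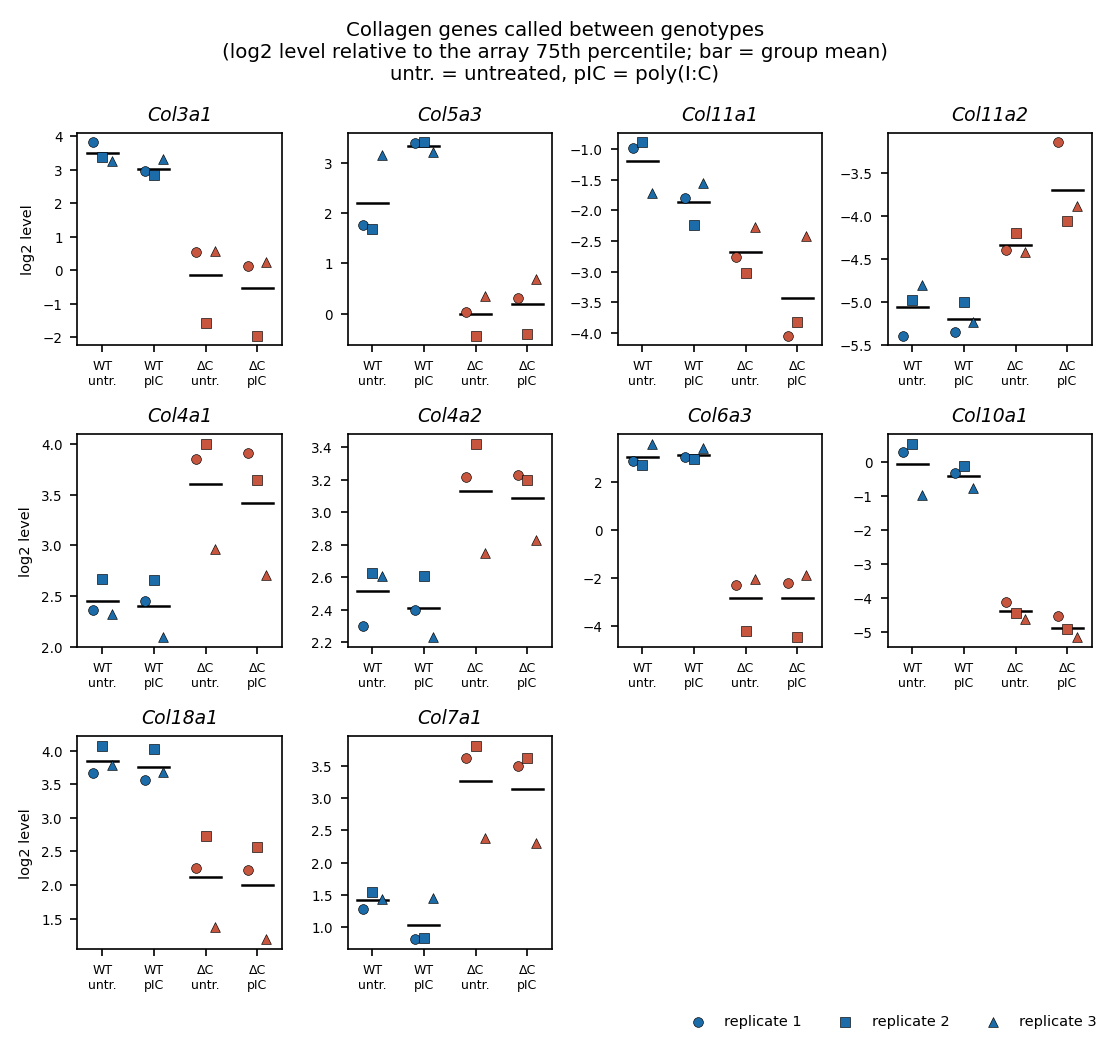
Log2 level on each array of the 10 collagen genes called in at least 1 genotype comparison, WT in blue and ΔC in red, with marker shape for the replicate number and a bar at the group mean. The genotypes part on every panel in at least 1 state, and ΔC array 3 (triangle) is the one nearest to WT for Col4a1, Col4a2 and Col7a1.

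Among the basement membrane chains, 5 of 6 were tested and 2 were higher in untreated ΔC cells. Col4a1 read 2.36, 2.67 and 2.32 in WT and 3.85, 4.00 and 2.96 in ΔC cells without poly(I:C), and 2.45, 2.66 and 2.09 against 3.91, 3.65 and 2.71 with it. Every ΔC array lay above every WT array in the same state. The change was 1.16 ± 0.34 untreated (limma adjusted p = 0.0363) and 1.02 ± 0.34 treated, which missed the threshold (limma adjusted p = 0.0583, or 0.00855 with the experiment block). With slide as a block the untreated call was lost (limma adjusted p = 0.125), and within a slide the changes were 1.34 and 1.46.

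Col4a2 moved with its neighbour by a smaller amount. Its levels were 2.30, 2.63 and 2.61 in untreated WT and 3.22, 3.42 and 2.75 in untreated ΔC cells, then 2.40, 2.61 and 2.23 against 3.23, 3.20 and 2.83. The ranges did not overlap, though ΔC array 3 came close to WT array 2 in both states. The change was 0.62 ± 0.20 untreated (limma adjusted p = 0.0495) and 0.67 ± 0.20 treated (limma adjusted p = 0.0347). Both were lost with slide as a block (limma adjusted p = 0.144 and 0.116), and within a slide the changes were 0.79 and 0.83. Scaling each array to its median removed both Col4a2 calls (limma adjusted p = 0.188 and 0.287) and the untreated Col4a1 call (0.0793), all 3 still higher in ΔC cells.

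The minor type IV chains, which replace the common ones in kidney and other specialised membranes, were not called. Col4a5 was higher by 0.52 ± 0.41 and 0.89 ± 0.41. Col4a6 was higher by 1.73 ± 0.78 and 1.71 ± 0.78, but a second probe of the gene gave -0.34 and 0.15. Col4a4 was lower on its brightest probe, at -1.64 ± 0.68 and -1.36 ± 0.68, and on a second probe the changes were -0.01 and 0.36. Col4a3 was well above background on no array.

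Type VI collagen is built from the chains of Col6a1, Col6a2 and Col6a3, and the third had the largest genotype change of any collagen gene tested. Col6a3 read 2.87, 2.73 and 3.58 in untreated WT and -2.27, -4.21 and -2.02 in untreated ΔC cells. Treated, it read 3.05, 2.97 and 3.40 against -2.20, -4.47 and -1.86. The lowest WT array stood above the highest ΔC array in both states, and all 12 readings were well above background. The change was -5.89 ± 0.70 untreated, 59.5-fold lower (limma adjusted p = 0.000339), and -5.99 ± 0.70 treated, 63.4-fold lower (limma adjusted p = 0.000353). Within a slide it was -6.95 and -5.26.

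Col6a1 and Col6a2, the 2 partners of that chain, were measured well above background on all 12 arrays and differed far less. Col6a1 read 5.26, 5.42 and 5.33 in untreated WT and 4.66, 4.19 and 4.83 in untreated ΔC cells, a change of -0.78 ± 0.30 that missed the threshold (limma adjusted p = 0.0954, or 0.041 with the experiment block). Col6a2 read 1.39, 1.81 and 1.72 against 1.28, 0.53 and 1.17, a change of -0.64 ± 0.40 (limma adjusted p = 0.278). For both genes the genotypes did not overlap untreated and overlapped after poly(I:C), where the changes were -0.50 and -0.49. Col6a4, Col6a5 and Col6a6, chains that can take the place of Col6a3, were not tested. Of these Col6a4 came closest, with at most 2 arrays of a group well above background on a probe.

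Col10a1, the chain of the hexagonal network around hypertrophic cartilage cells, read 0.30, 0.53 and -0.96 in untreated WT and -4.11, -4.43 and -4.62 in untreated ΔC cells. With poly(I:C) it read -0.31, -0.11 and -0.77 against -4.52, -4.92 and -5.16. The groups lay more than 3 units apart at their nearest arrays. The change was -4.34 ± 0.36 untreated, 20.3-fold lower (limma adjusted p = 3.35e-05), and -4.47 ± 0.36 treated (limma adjusted p = 3.56e-05), the smallest p-values among the collagen genes tested. Within a slide it was -4.96 and -4.21.

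The related network chains of type VIII, made by endothelium and cornea among others, were not called. Col8a1 read 0.86 to 1.37 in untreated WT and 0.97 to 1.29 in untreated ΔC cells, a change of 0.06 ± 0.20. Col8a2 gave 1.19 ± 0.86 and 1.69 ± 0.86 on its brightest probe. Its other probe gave -1.60 ± 0.35 (limma adjusted p = 0.00984) and -1.56 ± 0.35 (0.0112, both adjusted over all named probes that passed the filter), so that the direction for this gene depends on the probe.

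Col7a1, the chain of anchoring fibrils, had the largest rise. It read 1.28, 1.55 and 1.44 in untreated WT and 3.62, 3.81 and 2.39 in untreated ΔC cells, then 0.81, 0.83 and 1.45 against 3.50, 3.63 and 2.30. The groups did not overlap, and ΔC array 3 lay lowest of its group in both states. The change was 1.85 ± 0.42 untreated, 3.60-fold higher (limma adjusted p = 0.0118), and 2.12 ± 0.42 treated (limma adjusted p = 0.00622). With slide as a block both calls were lost (limma adjusted p = 0.177 and 0.0884), and within a slide the changes were 2.25 and 2.70.

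Col18a1, a basement membrane proteoglycan whose tail is the fragment endostatin, read 3.67, 4.07 and 3.78 in untreated WT and 2.25, 2.73 and 1.37 in untreated ΔC cells. The treated arrays read 3.57, 4.02 and 3.69 against 2.23, 2.56 and 1.19. Here ΔC array 3 lay farthest from WT, unlike for Col1a1, Col4a1 and Col7a1. The change was -1.73 ± 0.38 untreated (limma adjusted p = 0.0111) and -1.77 ± 0.38 treated (limma adjusted p = 0.00993), and a second probe gave -1.42 and -1.54. Col15a1, its close relative, changed by -0.60 ± 0.22 and -0.32 ± 0.22 and was not called (limma adjusted p = 0.0821 and 0.351), though it was called untreated with slide as a block (0.0492).

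The fibril-associated chains, which coat fibrils, gave 0 calls of 6 in either state. Without poly(I:C) the changes of 5 ran from -0.90 for Col14a1 to 0.18 for Col16a1. Col22a1 was well above background on 1 of 3 WT and 0 of 3 ΔC arrays in that state. Its untreated difference therefore rests largely on background readings, and no fold is given. With poly(I:C) the 6 changes ran from -0.32 to 0.40. Col16a1 read 3.63, 3.73 and 3.60 in untreated WT and 3.92, 3.40 and 4.20 in untreated ΔC cells. Col14a1, found in dense connective tissue, was at -0.90 ± 0.39 untreated and 0.40 ± 0.39 treated, and the former passed with the experiment block (limma adjusted p = 0.0241) but not without it (0.132). On their brightest probes Col9a1, Col9a2 and Col20a1 differed by 0.30 or less in size in both genotype comparisons, at -0.19, -0.30 and -0.27 untreated. A second, dimmer probe of Col20a1 gave 0.25 untreated and 1.24 ± 0.49 treated. The latter was not called (limma adjusted p = 0.0993 over all named probes that passed the filter). The membrane-spanning chains Col23a1 and Col25a1 gave -0.43 and 0.02 untreated and -0.22 and 0.59 treated.

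**Figure D3:**
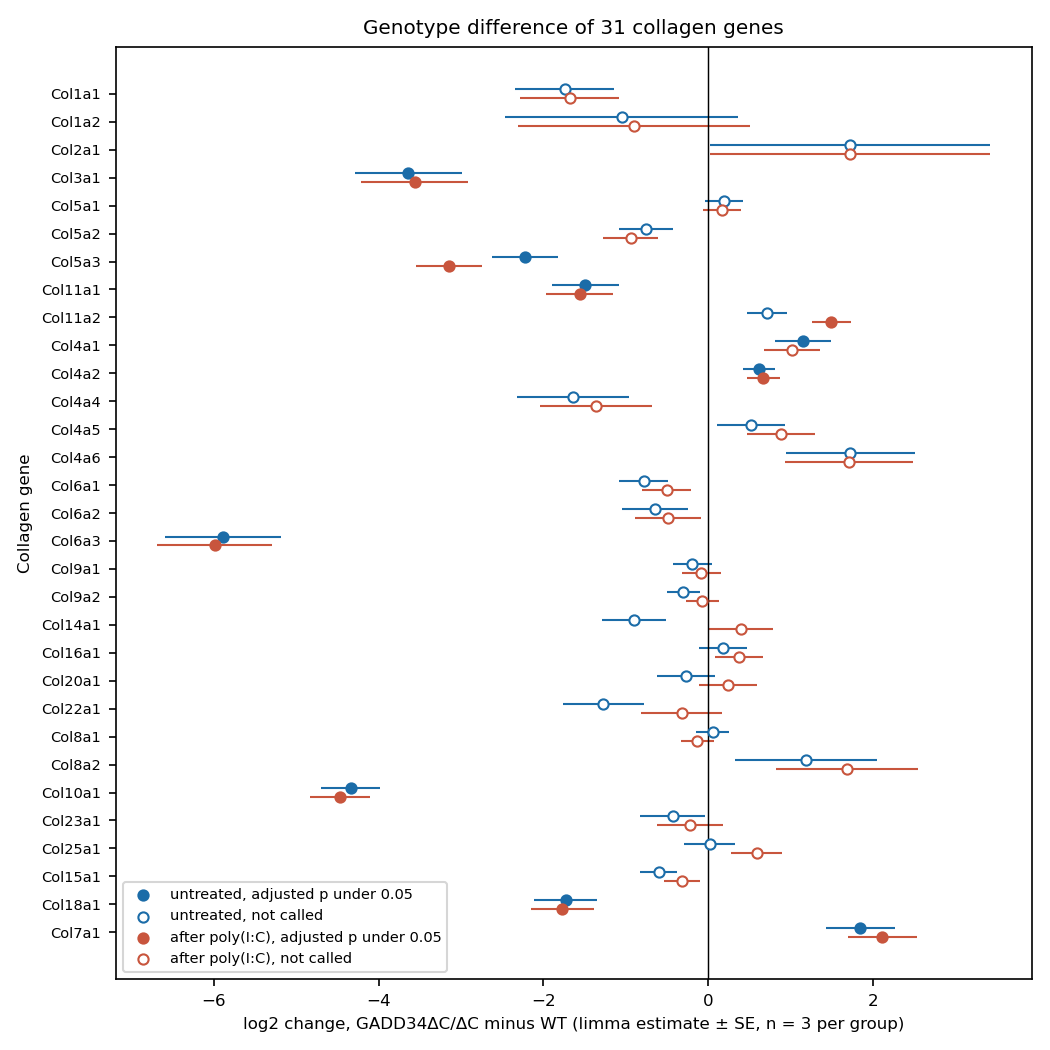
Log2 change between genotypes (ΔC minus WT) of the 31 tested collagen genes, untreated in blue and after poly(I:C) in red, with the standard error as a line and filled points for calls. Values near each other in both states are seen for most genes, from Col6a3 at -5.89 and -5.99 to Col7a1 at 1.85 and 2.12.

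The experiments are independent and arrays of the same number deviated together, so the fit with the experiment number as a block is also given. It called 15 collagen genes untreated (27.3% of all genes) and 14 after poly(I:C) (25.8% of all genes), and each set held all 9 genes called without the block. The genes added untreated were Col1a1, Col4a4, Col5a2, Col6a1 and Col14a1, all lower in ΔC cells, and Col22a1, whose untreated readings were mostly background. After poly(I:C) Col1a1, Col4a4 and Col5a2 were added as lower and Col4a1 and Col8a2 as higher. For Col4a4 and Col8a2 this depends on the probe. In the fit without the block their other probes gave 0.36 and -1.56 treated, and that of Col4a4 gave -0.01 untreated. With slide as a block the counts were 5 untreated, all lower, and 7 treated (5.98% and 6.08% of all genes). The 5 were Col3a1, Col6a3, Col10a1, Col18a1 and Col15a1, the last not called without that block. Those treated were Col3a1, Col5a3, Col6a3, Col10a1, Col11a2, Col18a1 and Col25a1, the last again an addition (limma adjusted p = 0.0464).

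For several collagen genes the array numbered 3 stood apart from the other 2 of its group. A gap of more than 1 log2 unit between array 3 and both others was seen for 3 of 31 collagen genes in untreated WT cells (9.68%, all genes 4.88%) and 4 in treated WT cells (12.9%, all genes 6.82%). In ΔC cells it was seen for 8 untreated and 8 treated (25.8% each, all genes 7.76% and 6.08%). These shares are descriptions with no test. Col2a1 was 4.80 units higher on WT array 3 than the mean of the other 2 untreated, and 5.65 treated. Col1a2 was 3.78 units higher on ΔC array 3 untreated and 4.40 treated, and Col4a6 lower, at -2.30 and -2.09.

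Markers of smooth muscle cells and myofibroblasts were among the marker genes that also differed on the arrays numbered 3. Cnn1 read -3.60, -3.87 and -0.66 in untreated WT and -0.76, -0.67 and 1.84 in untreated ΔC cells. Of 5 such markers 3 were tested, and Myh11 and Myocd were not well above background in any group. Their summed level, on a linear scale where the 75th percentile is 1, was 12.1 to 71.1 in untreated WT, 15.2 to 51.5 in treated WT, 36.7 to 150 in untreated ΔC and 43.6 to 132 in treated ΔC cells. Limma called 0 of the 3 between genotypes in either state, and 2 untreated and 3 treated with the experiment block. Array 3 also stood apart for markers of other lists. Thy1, a fibroblast marker, was 4.47 units higher on ΔC array 3 than the mean of the other 2 untreated, and 4.04 treated. Krt18, an epithelial marker, was 4.31 units higher on WT array 3 untreated and 3.59 treated. The part of these markers in the collagen values was not tested. Without the 4 arrays numbered 3, 16 collagen genes were called untreated (36.4% of all genes) and 15 treated (37.7%).

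**Figure D4:**
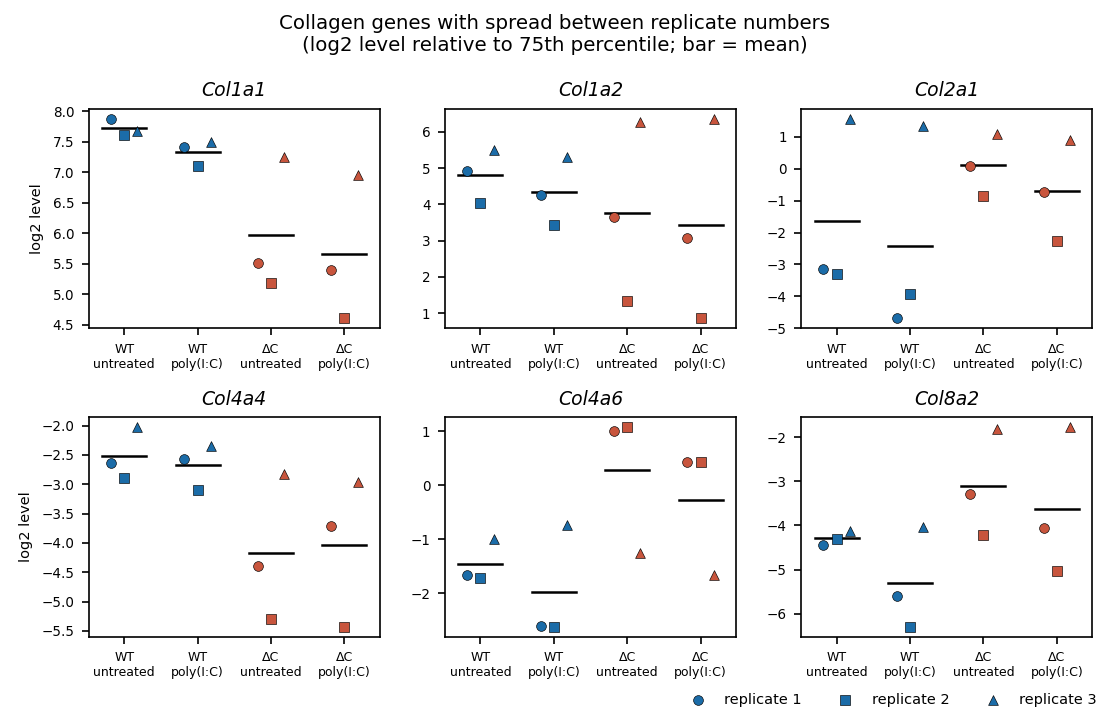
Log2 level on each array of 6 collagen genes whose replicate numbers spread widely, WT in blue and ΔC in red, with a bar at the group mean. Array 3 (triangle) is highest in all 4 groups for Col1a2, Col2a1, Col4a4 and Col8a2, and lowest in both ΔC groups for Col4a6.

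Several marker lists of other cell types held genes that differed between the genotypes in both directions. Of 7 chondrocyte markers 4 were tested, and Matn1, Hapln1 and Cnmd were well above background in no group. The summed level was 2.55 to 3.58 in untreated WT, 2.91 to 3.70 in treated WT, 1.44 to 2.54 in untreated ΔC and 1.82 to 2.61 in treated ΔC cells. These sums rest mostly on Sox9, with a mean log2 level of 1.41 in untreated WT. Untreated, 2 of the 4 chondrocyte changes lay above 0 and 2 below, and limma called Sox9 alone, at -0.79 (limma adjusted p = 0.0353). After poly(I:C) 1 lay above 0 and 3 below, and Matn3 alone was called, at least 2.19-fold higher in ΔC cells (limma adjusted p = 0.0148). Of 7 osteoblast markers 4 were tested, and Ibsp and Dmp1 were well above background in no group. The osteoblast sums were 10.6 to 30.8, 9.69 to 25.8, 1.96 to 5.41 and 2.84 to 5.63 in the same order of groups. Within that list Spp1 fell by 2.49 in untreated ΔC cells (limma adjusted p = 0.0105) and Alpl was at least 6.03-fold higher (limma adjusted p = 0.000144). The 10 fibroblast markers tested summed to 697 to 862, 539 to 736, 314 to 366 and 326 to 368. These sums rest mostly on S100a4 and Vim, with mean log2 levels of 8.83 and 8.31 in untreated WT. Untreated, 4 of the 10 changes lay above 0 and 6 below. Limma called Twist2 higher, at 0.65, and Pdgfrb, S100a4 and Vim lower, at -1.89, -2.06 and -0.63. After poly(I:C) 0 were called higher and 3 lower. Of 8 epithelial markers, all tested, the sums were 4.60 to 8.97, 3.34 to 6.83, 5.51 to 11.1 and 5.33 to 10.5, and 4 of the 8 changes lay above 0 and 4 below untreated. Epcam and Cdh1 were well above background on all ΔC arrays and no WT array, while Krt8 fell by 1.91 in untreated ΔC cells (limma adjusted p = 0.0118). Krt8 was well above background on 1 of 3 untreated ΔC arrays, so the size of its fall rests largely on background readings. Of 9 macrophage markers 6 were tested, Lyz2 and Tyrobp were well above background in no group, and the sums were 19.7 to 23.6, 14.4 to 16.7, 10 to 13 and 10.8 to 13.2. All 6 macrophage changes lay below 0 untreated, and limma called Csf1r, Cd14 and Itgam lower, at -1.19, -1.17 and -0.84. After poly(I:C) 2 lay above 0 and 4 below, and Cd14 alone was called, at -0.77 (limma adjusted p = 0.0126). Of 8 endothelial markers 4 were tested, Cdh5, Tek, Tie1 and Emcn were well above background in no group, and the sums were 19.3 to 27.3, 19.2 to 20.9, 28.7 to 30.5 and 24.0 to 29.3. Egfl7 was higher by 1.79 in untreated ΔC cells and the other 3 endothelial changes lay below 0, with Vwf at -1.64 after poly(I:C) (limma adjusted p = 0.00401). Of 7 glial or neuronal markers 6 were tested, S100b was well above background in no group, 0 were called between genotypes, and the sums were 1.97 to 2.60, 2.39 to 2.60, 2.40 to 2.93 and 2.36 to 3.08. Of 7 skeletal muscle markers 2 were tested, and the sums were 0.353 to 1.32, 0.442 to 0.953, 0.859 to 3.38 and 1.26 to 3.11. Myod1, Myog, Myf5, Actn2 and Ckm were well above background in no group. The 2 skeletal muscle changes lay above 0 in each state, and 0 were called untreated. Des was called after poly(I:C), at least 2.53-fold higher in ΔC cells (limma adjusted p = 0.00576). The part of all these cell types in the collagen differences was not tested.

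The next comparison asked whether collagen genes respond to poly(I:C). None of 31 was called in WT cells, where limma called 6.77% of all genes (5.24% higher and 1.53% lower), and 1 of 31 had an unadjusted p under 0.05 (26.2% of all genes). With the experiment block or slide as a block it was also 0 (8.29% and 1.5% of all genes). Of the 31 changes 26 lay below 0 and 5 above, with a median of -0.35 beside -0.14 over all genes. Over all 15445 genes 10015 changes lay below 0 and 5430 above. The lowest adjusted p was 0.107, for Col5a3, at 1.15 ± 0.40 with a confidence interval of 0.26 to 2.03. Between same-numbered WT arrays it was higher by 1.63 and 1.74 for numbers 1 and 2 and by 0.07 for number 3. It was the 1 collagen gene called without WT untreated array 3 (limma adjusted p = 0.0124), and Col8a1 was the 1 called without WT poly(I:C) array 3 (limma adjusted p = 0.0387). Treated and untreated arrays did not overlap for 1 gene that was higher and for Col1a1, Col6a1 and Col16a1, which were lower (30.6% of all genes, 12.0% higher and 18.6% lower).

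In ΔC cells none of 31 was called either, where limma called 1.84% of all genes (1.82% higher and 0.0194% lower), and 2 had an unadjusted p under 0.05 (10.9% of all genes). With slide as a block it was 0 (0.544% of all genes). Treated and untreated arrays did not overlap for 2 genes, both higher (17.7% of all genes, 8.79% higher and 8.91% lower). Of the changes 22 lay below 0, with a median of -0.13 beside -0.05 over all genes. Over all 15445 genes 8969 changes lay below 0 and 6476 above. Col22a1 read -6.17, -8.18 and -6.68 untreated, well above background on 0 of 3 arrays, and -4.91, -5.56 and -5.65 treated, on 3 of 3. Because the untreated readings are background, the difference is at least 1.68-fold. With the experiment block this was the 1 collagen gene called (2.03% of all genes), which supports nothing, since in ΔC cells it passed the filter through the treated arrays alone. Col11a2 was at 0.64 ± 0.24 (limma adjusted p = 0.357).

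**Figure D5:**
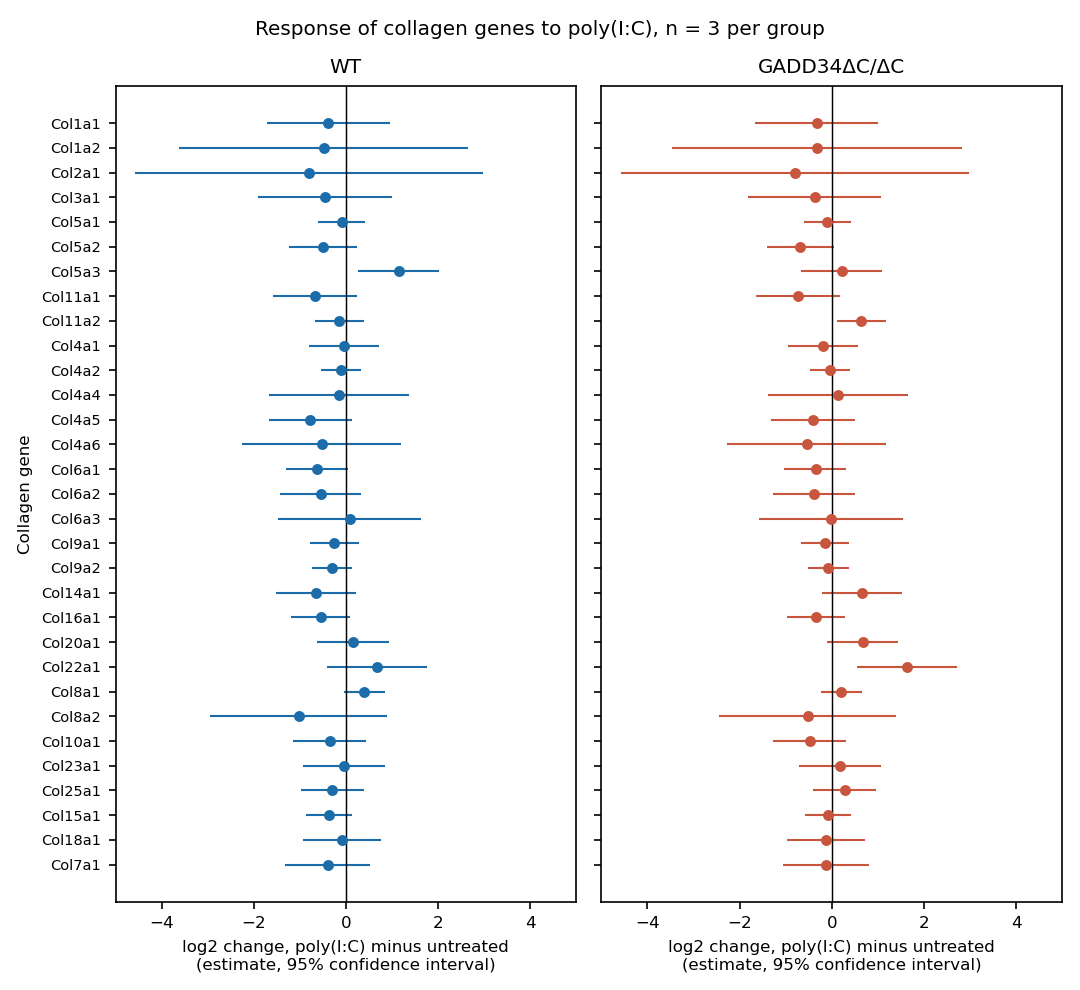
Log2 change after poly(I:C) of the 31 tested collagen genes in WT (left) and ΔC cells (right), with 95% confidence intervals from limma. None is called in either genotype, and the widest interval is that of Col2a1. Most points lie left of 0 in both panels, as do most changes over all genes tested.

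The confidence intervals bound the size of the responses. For Col5a1 the interval was -0.60 to 0.42 in WT and -0.61 to 0.41 in ΔC cells, and for Col4a2 -0.54 to 0.34 and -0.48 to 0.40. For Col1a2 it was -3.62 to 2.66 and for Col2a1 -4.57 to 2.97 in WT cells, in the fit that ignores the experiment number. With the experiment block these were -2.17 to 1.21 and -2.79 to 1.19. Between same-numbered arrays the WT response was -0.64, -0.61 and -0.19 for Col1a2 and -1.52, -0.63 and -0.24 for Col2a1, below 0 each time. Without the arrays numbered 3, 10 collagen genes were called in WT cells, 2 higher (Col5a3 and Col8a1) and 8 lower (34.1% of all genes), and 3 in ΔC cells, all lower (13.1% of all genes). Col4a6, Col5a2 and Col11a1 were lower in both of these reduced sets.

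The difference between the 2 responses was tested as an interaction. None of 31 collagen genes was called, beside 0.0194% of all genes (0.00647% higher and 0.0129% lower), and 2 had an unadjusted p under 0.05 (5.41% of all genes). None was called with the experiment block (0.265% of all genes), with slide as a block (0%) or without the arrays numbered 3 (2.94%). The 2 genes with an unadjusted p under 0.05 were Col14a1 and Col11a2. Col14a1 was at -0.65 in WT and 0.65 in ΔC cells, a difference of 1.30 ± 0.55 (limma adjusted p = 0.884). Col11a2 had a difference of 0.78 ± 0.33 (limma adjusted p = 0.886). The largest difference in the other direction was that of Col5a3, -0.93 ± 0.56, with an interval of -2.18 to 0.32.

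Of 19 genes for collagen folding and hydroxylation, 18 were tested, and 2 were higher and 1 lower in untreated ΔC cells. P3h3, of the prolyl 3-hydroxylase family, was higher by 1.41 ± 0.16 and Fkbp14, a prolyl isomerase of the endoplasmic reticulum, by 1.40 ± 0.33, while P4ha1, a prolyl 4-hydroxylase subunit, was at -0.92 ± 0.20 (limma adjusted p = 0.000235, 0.0143 and 0.0087). After poly(I:C) 3 were higher and 0 lower, Fkbp14, P3h3 and Tmem38b. In the WT response to poly(I:C) 1 of the 18 was called, P4ha1, which fell by 0.78 ± 0.20 (limma adjusted p = 0.0424), and 2 with the experiment block. Of 9 export genes, 1 was higher untreated, Mia3, whose product loads procollagen into carriers, at 0.62 ± 0.15, and 3 treated, Mia3, Creb3l2 and Klhl12.

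Of 14 genes for trimming and crosslinking of procollagen, 12 were tested. In untreated ΔC cells Adamts14, Loxl2 and Loxl3 were higher, at 1.29, 1.05 and 1.28, and Pcolce, an enhancer of procollagen trimming, was lower at -0.63. Of 20 matrix partners of fibrils, 17 were tested, and 2 were higher and 4 lower. Thbs2 and Comp, of the thrombospondin family, were higher by 3.75 ± 0.91 and 2.67 ± 0.42. Biglycan (Bgn), a fibril-binding proteoglycan, was lower at -2.86 ± 0.70, as were Thbs1 at -1.66 and Tnxb at -1.55. Among 10 collagen receptors, 8 tested, Itga11 was higher by 4.55 ± 0.84 and Itga2 lower at -1.28 ± 0.40, both integrin chains that bind collagen. Itga2 was well above background on 1 of 3 untreated ΔC arrays, so the size of its untreated fall rests largely on background readings. Of 17 genes of the TGF-beta pathway, which drives collagen synthesis in fibroblasts, 0 were higher and 4 lower in each state, with Tgfbi at -1.79, Tgfbr3 at -0.97 and Ltbp1 at -0.67 the largest falls untreated. After poly(I:C) the matrix partners had 2 higher and 3 lower, and the receptors and the trimming genes 1 and 2 higher and 1 each lower. All of these calls are by limma at an adjusted p under 0.05, where 21.2% of all genes were called untreated and 20.9% treated. With the experiment block the untreated calls were 6 for folding, 5 for trimming, 8 for matrix partners, 1 for receptors, where Itga2 was lost (limma adjusted p = 0.0518), and 3 for the TGF-beta pathway. The treated calls were then 3, 5, 7, 3 and 6. With slide as a block the counts were 1, 2, 3, 1 and 0 untreated and 1, 0, 3, 1 and 0 treated, and export had 0 in both states. The median untreated changes were -0.24 for folding, -0.04 for export, -0.14 for trimming, -0.22 for matrix partners, 0.03 for receptors and -0.29 for the TGF-beta pathway, beside -0.06 over all genes. In the WT response Sparc, a collagen-binding glycoprotein, fell by 0.47 (limma adjusted p = 0.0388) and Smad6, an inhibitory SMAD, by 1.07 (limma adjusted p = 0.0339, or 0.0517 with the block). The ΔC response and the difference between the responses gave 0 calls in these 6 lists.

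The 12 collagen genes that were not tested were Col4a3, Col6a4, Col6a5, Col6a6, Col9a3, Col13a1, Col17a1, Col19a1, Col24a1, Col26a1, Col27a1 and Col28a1. Col22a1 lay just inside the filter, on all 3 arrays of both treated groups and 1 of 3 untreated WT arrays. Col24a1 lay just outside, with treated WT arrays at -3.28, -3.34 and -7.33, of which the first 2 were well above background. Its readings in the untreated groups were between -8.36 and -7.74, on no array well above background. Col27a1 was well above background on 2 of 3 untreated ΔC arrays, at -5.70, -6.90 and -4.89. Col12a1 was not analysed here.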

How the data were processed

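RNA of 12 MEF samples (4 groups of 3) was labelled with Cy3 and hybridised to 12 single-colour arrays. The deposited scanner files hold, per the file headers, the intensity of 62976 spots read with Feature Extraction 10.7.3.1, background-subtracted and spatially detrended. An alternative used log2 values from a table that the authors deposited, for which limma is named in the submitters' processing notes. Its scale, centring and normalization steps are not stated, and all 12 columns share a median of 5.28.

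The 75th percentile of each array was subtracted from the log2 processed intensity. Control spots were removed, as were the 91 to 163 spots an array that the software marked as outliers. None of the rest (0) was saturated. Of 55681 probes 27235 were named through RefSeq accessions, and the brightest probe stood for a gene. The 5 contrasts were fitted over all arrays by limma 3.58.1 (R 4.3.3), with a mean for each group, two-sided tests and Benjamini-Hochberg adjustment over 15445 genes, and the script was checked on simulated data. A fold against a group with no array above background is a bound, taken with that group raised to the lowest such signal of each array. Arrays have no count depth, and their number limits precision. Same-numbered arrays deviated together (r of 0.115 to 0.651 across genes), more weakly between genotypes (0.115 to 0.281). The fit with the experiment number as a block is therefore given beside the main fit. These correlations alone do not establish pairing, since array number also goes in part with slide and scan day.

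The alternatives were other scalings, background correction, filters, probes, fits, blocks and left-out arrays. Named genes were all collagen members and, from each pathway list, up to 3 called rises and falls. The members and lists were chosen with earlier results of these data known, although the symbol rule itself reads no measured value.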

Additional observations from a re-analysis of the deposited data

How the results depend on the processing

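Array weights gave 7 collagen calls in the WT response, 2 in the ΔC response, 18 between genotypes untreated and 17 after poly(I:C), where they called 43.7, 17.3, 48.0 and 44.9% of all genes. Leaving out replicate 3 of all groups gave 10, 3, 16 and 15. The replicate block gave 1 call in the ΔC response, 15 untreated and 14 treated, and left the collagen counts of the WT response and the difference at 0. Slide as a block gave 5 untreated. The authors' table gave 4 untreated and 1 treated (6.66 and 3.60% of all genes), and 10 and 7 (19.2 and 14.4%) without its column for ΔC poly(I:C) 1, which correlated with its own scanner file at -0.341. Leaving out 1 array at a time gave 0 to 1 calls in the WT response (1 without WT untreated array 3 or WT poly(I:C) array 3), 0 to 0 in the ΔC response and the difference, 5 to 13 untreated and 7 to 13 treated. The untreated count was 5 without ΔC untreated array 1 or 2, 6 without WT untreated array 1 or 2, and 13 without ΔC untreated array 3. The treated count was 13 without ΔC poly(I:C) array 3. The calls lost most often were those of Col4a2, in 10 of 12 such fits untreated. Other probes reversed Col4a4 (0.36, adjusted p = 0.386) and Col8a2 (-1.56, adjusted p = 0.0112) after poly(I:C). The cause was not tested. Scaling to the median shifted the median of all genes in the treated genotype comparison from 0.01 to -0.14 and its calls from 1837 higher and 1396 lower to 999 and 1179. It moved those of the untreated comparison from 1686 and 1581 to 1264 and 696, and of the WT response from 809 and 237 to 583 and 14. For collagen genes called in a comparison with or without the replicate block, 717 values over the settings kept their direction and side of the threshold, 70 lost and 53 gained a call, and 2 reversed. The fit on only the groups compared gives no value for the difference. Signals near background, as for Col22a1 and Col11a2, limit what can be said of dim chains.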
